A study of Mus musculus with 6 samples.

Results

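A set of 9 genes for proteins that hepatocytes secrete into blood and that act on metabolism elsewhere in the body were followed in the liver of *KRAP*-/- mice. They are *Igfbp2*, *Igfbp4*, *Rbp4*, *Ahsg*, *Fetub*, *Lect2*, *Angptl6*, *Inhbe* and *Inhbc*. Members were taken as every probe set annotated to one of these symbols and to no other gene, which gave 14 probe sets for 9 genes, of 45037 probe sets and 18193 named genes on the array. All 14 passed the limit on dim probe sets and are among the 28531 that were tested. *Igfbp4* had 6 probe sets and each other gene had 1.

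Liver RNA came from 3 *KRAP*-/- mice and from 3 wild-type mice, each the littermate of a mutant, all 32 weeks old and on normal chow, with 1 array per mouse. In the mutant line exons 11 to 16 of *KRAP* (now *Itprid2*) are replaced by a neomycin cassette in every tissue, and the line was backcrossed 6 times to C57BL6/J. The values are signal intensities divided by the median of their array, so a value of 1 is the middle probe set of that array. The sex of these mice is not given in the sources used here. *Xist*, transcribed from the inactive X chromosome, had a signal of 79.1 to 85.6 in *KRAP*-/- and 66.3 to 83.4 in wild-type mice, and the highest Y-linked probe set was at 0.288 to 0.436 in *KRAP*-/- and 0.304 to 0.526 in wild-type mice. The deletion is not limited to the liver. Mice are named by pair, so that *KRAP*-/- mouse 1 is the littermate of wild-type mouse 1.

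Proteins that the liver sends into blood to act on fat, muscle or pancreas are called hepatokines. The set includes carriers whose level sets how much of a hormone or vitamin reaches its receptor (the IGF-binding proteins and the retinol carrier *Rbp4*), the fetuins *Ahsg* and *Fetub*, and members of the angiopoietin-like and activin families. Most are made by hepatocytes in large amounts, and nutritional state and insulin are known to set the level of several of them.

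The promoter sequences shown here are those of the single gene that passed the test, *Igfbp2*, and of the adjacent fetuin genes. Each is the 250 bases before the annotated start on the strand of the gene, from RefSeq (GRCm38.p6). Capitals mark GGGCGG (the core of a GC box), TATAAA (the sequence called TATA box) and CCAAT, read on both strands, and no motif contains another.

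*Igfbp2*, chr1:72824230-72824479, plus strand: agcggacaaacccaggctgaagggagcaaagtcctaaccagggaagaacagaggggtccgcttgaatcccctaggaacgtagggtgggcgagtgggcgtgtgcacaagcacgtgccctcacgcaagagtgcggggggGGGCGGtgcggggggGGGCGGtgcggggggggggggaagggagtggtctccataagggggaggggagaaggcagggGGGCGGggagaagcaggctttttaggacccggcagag

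*Fetub*, chr16:22918132-22918381, plus strand: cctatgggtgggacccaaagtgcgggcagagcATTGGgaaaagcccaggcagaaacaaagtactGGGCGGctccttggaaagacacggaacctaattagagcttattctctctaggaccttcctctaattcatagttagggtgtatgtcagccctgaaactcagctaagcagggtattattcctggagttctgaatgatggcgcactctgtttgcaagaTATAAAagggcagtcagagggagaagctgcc

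*Ahsg*, chr16:22891765-22892014, plus strand: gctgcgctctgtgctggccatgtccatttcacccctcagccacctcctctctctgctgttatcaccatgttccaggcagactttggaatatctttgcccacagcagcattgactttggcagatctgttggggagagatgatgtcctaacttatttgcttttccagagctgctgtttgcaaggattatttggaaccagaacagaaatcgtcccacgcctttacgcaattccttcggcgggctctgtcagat

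The window of *Igfbp2* at its first listed start held 3 copies of GGGCGG and neither of the other motifs, at a GC content of 67.2%, against a median of 52.4% over all 32851 windows. *Igfbp2* has a second listed window, with no copy of any of the motifs at 56.4% GC. The first window of *Fetub* held 1 copy of each motif at 49.2% GC, its second held GGGCGG alone, and that of *Ahsg* held none. Over all windows, 32.7% held GGGCGG, 12.4% held TATAAA and 33.8% held CCAAT. Over the 12 windows of the 9 genes, the motifs were found in 4, 3 and 3. These are matches of letters in a window, with no binding measured.

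Of the set, 1 gene passed the test. It was *Igfbp2*, 1.51-fold higher in *KRAP*-/- liver. No other member passed in either direction. *Fetub* came nearest, 1.22-fold higher in *KRAP*-/- liver with groups that did not overlap, and the remaining 12 probe sets lay between -0.12 and 0.21 on the log2 scale. The 1 probe set called higher stands beside 0.431% of all probe sets tested called higher (123), and the 0 called lower beside 0.978% (279), or 1.41% in either direction, by limma with an adjusted p under 0.05. The split of these calls over the array depended on scaling, with 170 higher and 205 lower on the values as deposited and 151 and 208 after quantile normalization. At an unadjusted p under 0.05 lay 2 of 14 member probe sets, or 14.3%, against 14.9% of all tested.

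**Figure D1:**
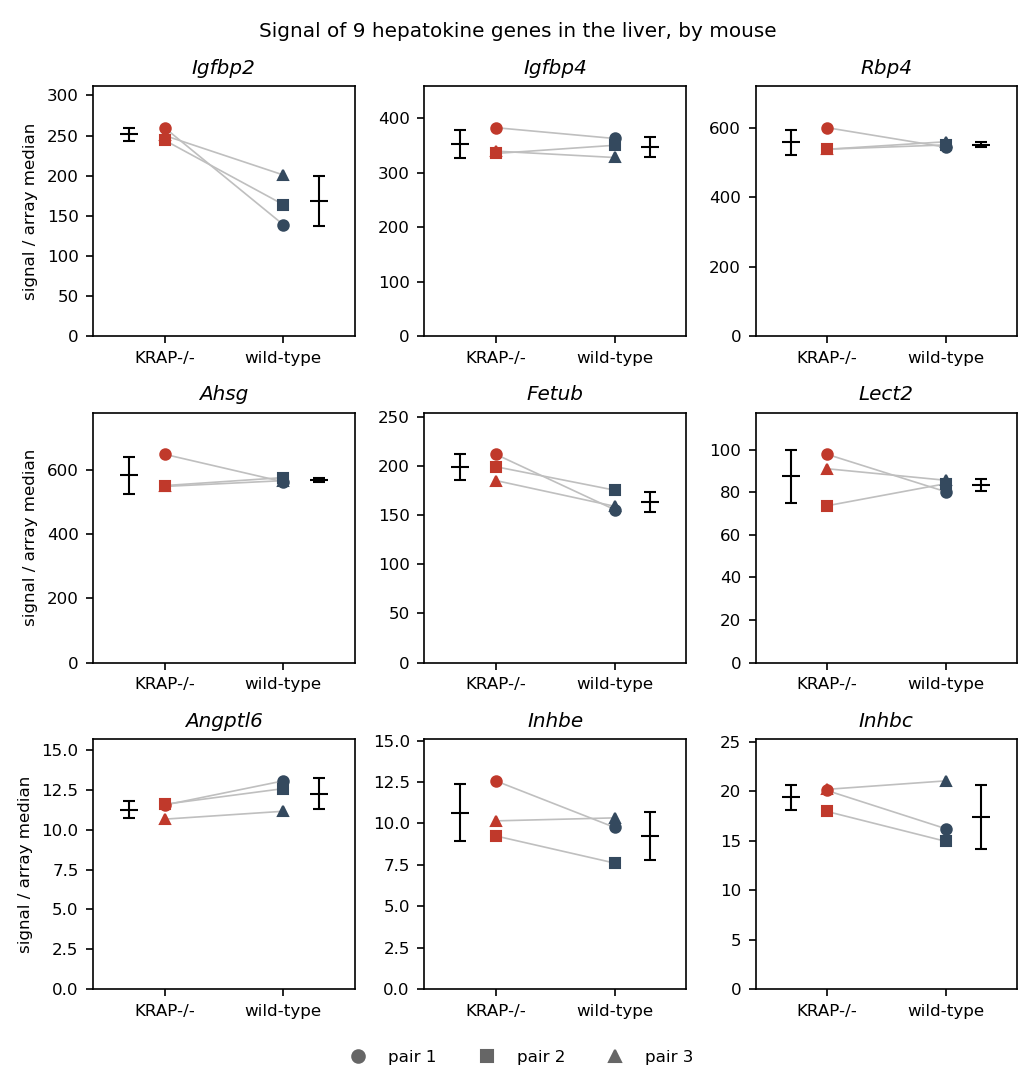
Signal of the 9 genes in each liver, in units of the array median on a linear axis from 0, with *KRAP*-/- mice on the left and wild-type mice on the right. Lines join littermates, bars show mean and SD (n = 3 per genotype), and *Igfbp4* is shown at its brightest probe set. The *KRAP*-/- livers lie above all wild-type livers for *Igfbp2* and *Fetub*.

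*Igfbp2* encodes a binding protein that holds insulin-like growth factors in blood, and its hepatic expression is known in mice to respond to leptin. Its signal was 260, 244 and 250 in *KRAP*-/- mice 1, 2 and 3, against 139, 164 and 201 in wild-type mice 1, 2 and 3. The lowest *KRAP*-/- liver was thus above the highest wild-type liver, and the livers of each genotype spread unequally. The mean signal was 251 ± 7.87 in *KRAP*-/- and 168 ± 31.2 in wild-type mice (SD, n = 3 each). Within pairs the ratio of *KRAP*-/- to wild-type was 1.87, 1.49 and 1.25, and the step from pair to pair followed the wild-type littermate, since the *KRAP*-/- values lay within 244 to 260. The log2 fold change was 0.60 (SE 0.11, 95% interval 0.35 to 0.84, adjusted p = 0.035 from limma), a fold change between 1.28 and 1.80. Leaving out pair 1, which had the largest ratio, gave 0.45 with an adjusted p of 0.021 from limma. The call was lost with no limit on dim probe sets (adjusted p = 0.41) and with no intensity trend (adjusted p = 0.43), settings under which limma called no probe set on the array. Among the 123 probe sets called higher, *Igfbp2* ranked 105 by size, and 14.2% of all probe sets tested changed by more in either direction. The median rise of the 123 was 0.89 on the log2 scale. Because whole liver was assayed, fewer cells of a type and less RNA per cell cannot be told apart here or for any gene below.

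*Igfbp4*, the other IGF-binding protein of the set, gave 6 readings of the same RNA. At its brightest probe set the signal was 382, 335 and 339 in *KRAP*-/- liver, against 362, 350 and 328 in wild-type liver. The groups overlapped, and the log2 fold change was 0.02 (95% interval -0.15 to 0.19), so a change of more than 1.14-fold up or a fall below 0.901 of wild-type lies outside the interval. The 6 probe sets ran from -0.10 to 0.02 with adjusted p-values of 0.74 to 0.92 from limma, and 5 were below 0, of which 2 turned to 0.00 and 0.01 on the values as deposited. All 6 read *KRAP*-/- higher in pair 1 and lower in pair 2. The dimmest spread most, with 29.0, 27.6 and 24.6 in *KRAP*-/- liver, against 19.8, 40.2 and 29.2 in wild-type liver. Its pair ratios were 1.46, 0.689 and 0.842, whereas those of the brightest were 1.05, 0.957 and 1.04.

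Of the other IGF axis genes (ligands, receptors, further binding proteins and their regulators), 11 of 13 listed were tested and none passed in either direction by limma (3 at an unadjusted p under 0.05). Their median log2 fold change was -0.33, against -0.04 over all probe sets tested. By the naming rule the 2 with the largest change were *Igf2* at -1.36 (adjusted p = 0.35) and *Stc2* at -0.51 (adjusted p = 0.73), both near the limit on dim probe sets. Both values moved over the fits that left out 1 pair, with *Igf2* from -2.25 to -0.89 and *Stc2* from -1.05 to 0.41. *Igf2* stayed below 0 in these fits, and *Stc2* was above 0 without pair 1. A second tested probe set of *Stc2*, slightly dimmer, read 0.18 (adjusted p = 0.88 from limma), so its readings disagreed in sign. The following members of this list were named for their role with their values already seen. *Igfals*, the acid-labile subunit that keeps IGF complexes in blood, had 37.3, 29.9 and 31.1 in *KRAP*-/- liver, against 50.9, 43.8 and 38.5 in wild-type liver. These groups did not overlap, but the log2 difference of -0.44 missed the threshold (adjusted p = 0.058 from limma). It was called in 1 of 11 alternative settings, without pair 3 (adjusted p = 0.030), and not without pair 1 (0.12) or pair 2 (0.19) or on the values as deposited (0.20). *Igf1*, the main circulating ligand, read between -0.32 and -0.16 at its 4 probe sets with adjusted p-values of 0.14 to 0.52. At the dimmest of these the groups did not overlap, with 63.8, 49.5 and 56.4 in *KRAP*-/- liver, against 75.5, 69.2 and 65.9 in wild-type liver. They overlapped at the others. *Igfbp1*, a binding protein that insulin represses, had 63.3, 83.7 and 158 in *KRAP*-/- liver, against 46.9, 88.9 and 86.8 in wild-type liver (adjusted p = 0.26), so only *KRAP*-/- mouse 3 stood above the wild-type range. *Igfbp5*, the gene adjacent to *Igfbp2* on chromosome 1, had 3.07, 1.95 and 3.38 in *KRAP*-/- liver, against 5.60, 4.35 and 2.20 in wild-type liver (adjusted p = 0.52). Besides *Igfals* and *Igfbp1*, *Igfbp7* lay at an unadjusted p under 0.05 in this list. *Igfbp7* had 57.6, 55.7 and 55.5 in *KRAP*-/- liver, against 73.6, 85.7 and 60.4 in wild-type liver. Its groups did not overlap, at a log2 difference of -0.37 (adjusted p = 0.15 from limma).

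*Ahsg* and *Fetub* are neighbours on chromosome 16 and encode fetuin-A, which binds calcium phosphate and is known to inhibit the insulin receptor kinase, and fetuin-B, an inhibitor of the egg protease ovastacin that is also secreted by fatty liver. *Fetub* had 212, 199 and 185 in *KRAP*-/- liver, against 156, 176 and 159 in wild-type liver. All *KRAP*-/- livers lay above all wild-type livers, as at 7.8% of the probe sets tested, and with *Igfbp2* this made 2 of 14 member probe sets with groups apart, against 20.1% in either direction over the array. No member had all *KRAP*-/- livers below all wild-type livers, against 12.3% of those tested. The mean signal was 199 ± 13.4 in *KRAP*-/- and 163 ± 10.6 in wild-type mice (SD, n = 3 each). The pair ratios were 1.36, 1.14 and 1.16. Its log2 fold change of 0.28 (SE 0.08, 95% interval 0.09 to 0.47) did not pass after adjustment over the array (adjusted p = 0.16 from limma). It ran from 0.20 to 0.33 over the 11 alternative settings, with adjusted p-values of 0.082 to 0.50, so the difference was not called under any of them.

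*Ahsg* had 648, 551 and 548 in *KRAP*-/- liver, against 563, 576 and 566 in wild-type liver. Only *KRAP*-/- mouse 1 left the wild-type range on the high side, and the other *KRAP*-/- mice lay just below it. The log2 fold change was 0.03 (95% interval -0.16 to 0.22, adjusted p = 0.90 from limma). The difference in response between the fetuin genes was not itself tested. Genes on either side read as follows: *Dnajb11*, an ER chaperone, -0.25 (adjusted p = 0.30), *Tbccd1* -0.08, *Hrg* 0.08 and *Kng1* 0.02, of which none passed, while *Crygs* was under the limit on dim probe sets and *Kng2* was not analysed here. *Hrg* and *Kng1* belong, with the fetuins, to the cystatin superfamily of plasma proteins. Of 4 such genes listed, 3 were tested and none passed (1 at an unadjusted p under 0.05), with a median of 0.02, and *Cst3* (cystatin C) had the largest change at -0.18 (adjusted p = 0.32).

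*Rbp4* encodes the carrier that takes retinol out of the liver and is also known as an adipokine linked to insulin resistance. It had 600, 538 and 538 in *KRAP*-/- liver, against 544, 550 and 560 in wild-type liver, and the highest of the 6 livers was 1.12 times the lowest. The log2 fold change was 0.02 (SE 0.08, 95% interval -0.16 to 0.19, adjusted p = 0.94 from limma), a fold change between 0.895 and 1.14. *Rbp4* and *Ahsg* were bright, with deposited signals of 10672 to 14036 and 10802 to 15165, against array maxima of 16608 to 21426. Whether such signals are compressed was not tested.

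The genes that load, store and break down retinol were listed beside *Rbp4*. Of 12, 8 were tested and none passed in either direction (4 at an unadjusted p under 0.05). Below 0 were 8 of 8, or 6 of 8 on the values as deposited and after quantile normalization, while 44.8% of all probe sets tested were above 0. Their median log2 fold change was -0.34. *Lrat*, which esterifies retinol for storage and is a stellate cell gene, had 4.67, 6.56 and 6.09 in *KRAP*-/- liver, against 9.14, 8.72 and 9.14 in wild-type liver. Its groups did not overlap, at a log2 difference of -0.66 with an adjusted p of 0.070 from limma. It was called in 1 of 11 alternative settings, without pair 2 (-0.78, adjusted p = 0.026), and not without pair 1 (-0.50, adjusted p = 0.24) or pair 3 (-0.69, adjusted p = 0.064). *Cyp26a1*, which breaks down retinoic acid, had 13.7, 20.7 and 10.9 in *KRAP*-/- liver, against 25.8, 19.1 and 21.7 in wild-type liver, where pair 2 alone ran the other way. Its log2 difference was -0.60 (adjusted p = 0.20). Without pair 1 it was -0.44 (adjusted p = 0.40) and without pair 3 -0.40 (adjusted p = 0.36), and only without pair 2, the pair that ran the other way, was it called (-0.95, adjusted p = 4.0e-04). The summed signal of 7 stellate markers, *Lrat* among them, was 204 to 215 in *KRAP*-/- liver and 183 to 215 in wild-type liver, with none called. This sum is carried by *Dcn*, with 123 to 130 in *KRAP*-/- and 101 to 124 in wild-type liver. Of the 7 markers 5 were below 0 (median -0.27), and *Col3a1* had groups apart in the direction of *Lrat* (-0.55, adjusted p = 0.11). The part of stellate cells in these values was not tested.

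*Lect2*, a chemotactic protein known in mice to impair insulin signalling in muscle, had 97.9, 73.7 and 91.1 in *KRAP*-/- liver, against 80.3, 84.1 and 85.7 in wild-type liver. The *KRAP*-/- livers lay on both sides of the wild-type range. The log2 fold change was 0.06 (95% interval -0.17 to 0.29, adjusted p = 0.82 from limma), so a rise above 1.22-fold or a fall below 0.891 of wild-type lies outside the interval. Of 6 genes for receptors and substrates on which the fetuins and *Lect2* act (among them *Insr*, *Tlr4*, *Met* and *Tie1*), all 6 were tested and none passed (0 at an unadjusted p under 0.05), with a median of -0.01, or 0.04 on the values as deposited. The largest changes were *Tie1* at -0.60 (adjusted p = 0.34) and *Tlr4* at -0.50 (adjusted p = 0.46).

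*Angptl6*, an angiopoietin-like protein known in mice to counter obesity and insulin resistance, had 11.5, 11.6 and 10.7 in *KRAP*-/- liver, against 13.1, 12.6 and 11.1 in wild-type liver. It was the only member gene lower in *KRAP*-/- liver in 3 of 3 pairs, though the groups overlapped. The pair ratios were 0.884, 0.922 and 0.956. The log2 fold change of -0.12 (SE 0.11, 95% interval -0.36 to 0.12) did not pass (adjusted p = 0.65 from limma).

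Among its relatives, the inhibitors of lipoprotein lipase *Angptl4* and *Angptl8* both passed, in opposite directions. *Angptl8*, which insulin and feeding induce, had 20.8, 14.5 and 16.2 in *KRAP*-/- liver, against 61.2, 33.3 and 26.3 in wild-type liver. It fell by 1.15 on the log2 scale (SE 0.15, adjusted p = 0.0077 from limma), and with no pairing the adjusted p was 0.061. *Angptl4* had 55.9, 54.8 and 53.5 in *KRAP*-/- liver, against 33.5, 29.0 and 37.6 in wild-type liver (log2 fold change 0.72, adjusted p = 0.011). *Angptl1* was the third member tested and did not pass. *Angptl7* was under the limit on dim probe sets.

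*Inhbe* and *Inhbc* encode the beta subunits of activin E and activin C, TGF-beta family proteins made mainly by hepatocytes, and are neighbours on chromosome 10. In mice, activin E from the liver is known to restrain lipolysis in fat through the receptor *Acvr1c*. *Inhbe* had 12.6, 9.25 and 10.2 in *KRAP*-/- liver, against 9.76, 7.61 and 10.3 in wild-type liver. *Inhbc* had 20.1, 18.0 and 20.2 in *KRAP*-/- liver, against 16.2, 14.9 and 21.1 in wild-type liver. Both genes overlapped between genotypes, and both were higher in *KRAP*-/- liver in pairs 1 and 2 and slightly lower in pair 3. The pair ratios were 1.29, 1.22 and 0.982 for *Inhbe*. For *Inhbc* they were 1.24, 1.20 and 0.959. The log2 fold change was 0.21 for *Inhbe* (95% interval -0.07 to 0.49, adjusted p = 0.48 from limma). It was 0.17 for *Inhbc* (95% interval -0.08 to 0.42, adjusted p = 0.51). The intervals reach a 1.40-fold and a 1.34-fold rise, so a 1.22-fold difference, as seen for *Fetub*, lies inside both. The nearest genes on each side that could be tested were *Mars1* at 0.09, *Arhgap9* at 0.19, *R3hdm2* at 0.02 and *Ndufa4l2* at -0.38, and none passed. *Gli1* and *Stac3* were under the limit on dim probe sets.

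Of 14 partners of these activins (other subunits, binding proteins, receptors and SMADs), 13 were tested and none passed (2 at an unadjusted p under 0.05), with a median of -0.10. The largest changes were *Inha* at -1.70 (adjusted p = 0.35), a dim probe set, and *Fst*, the activin antagonist follistatin, at 0.54 (adjusted p = 0.39). The dimmer probe set of *Fst* read 0.99 (adjusted p = 0.28 from limma). There *Fst* had 1.47, 1.20 and 1.67 in *KRAP*-/- liver, against 0.851, 0.942 and 0.470 in wild-type liver, so these groups did not overlap. *Inhbb* read 0.055 as its adjusted p at its dimmer probe set, which was picked out after its values were seen. There it had 2.49, 2.21 and 3.49 in *KRAP*-/- liver, against 0.668, 1.21 and 1.54 in wild-type liver. It was called in 3 of 11 alternative settings, among them without pair 2 (adjusted p = 0.013 from limma). It was not called without pair 1 (0.11), without pair 3 (0.078) or with no replicate block (0.087). Its brighter probe set gave a log2 fold change of -0.28, against 1.32 at the dimmer, so the readings of this gene disagreed in sign. Of 8 genes of the ATF4 and CHOP stress response, a pathway known to induce *Inhbe*, none passed (1 at an unadjusted p under 0.05, median -0.19), with *Ddit4* at -0.64 (adjusted p = 0.14) and *Atf3* at -0.45 (adjusted p = 0.63), which was -0.04 without pair 3 and -0.97 without pair 2.

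**Figure D2:**
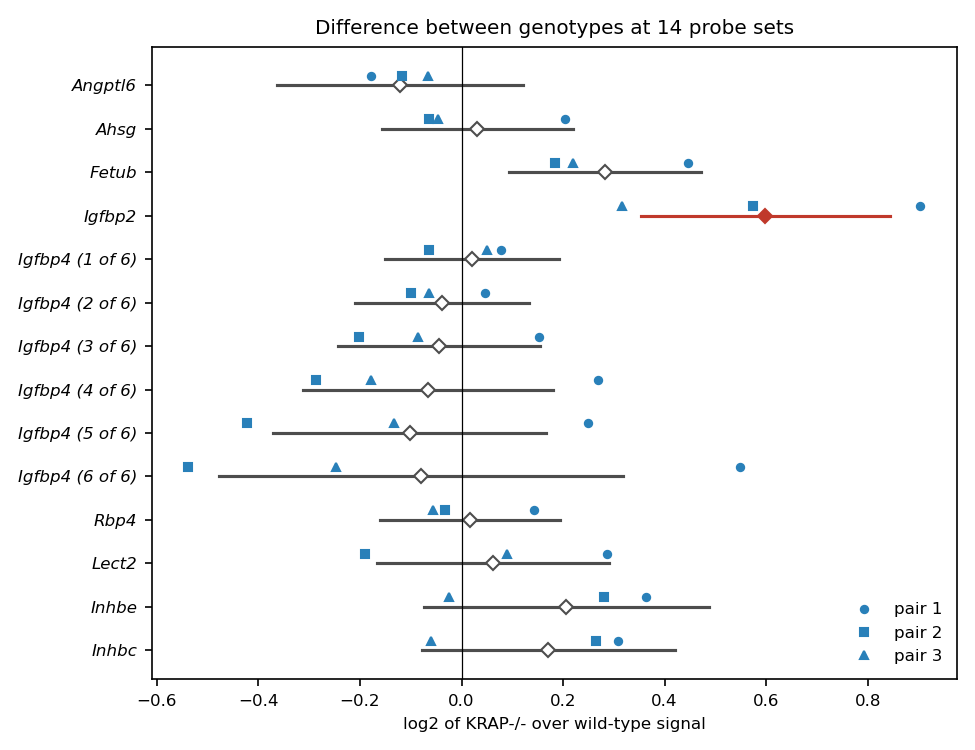
Log2 of *KRAP*-/- over wild-type signal at the 14 member probe sets, with *Igfbp4* ordered by signal. Diamonds and lines are the limma estimate and its 95% interval, small symbols are the 3 littermate pairs, and red marks an adjusted p under 0.05, which *Igfbp2* alone reached. Pair 1 (circles) lies to the right of 0 everywhere except at *Angptl6*.

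The mice of pair 1 stood apart for most of the set. In pair 1 the *KRAP*-/- liver was higher at 13 of 14 member probe sets, with a median ratio of 1.20. In pair 2 it was higher at 4 of 14 (median ratio 0.945), and in pair 3 also at 4 of 14 (median ratio 0.960). Since *Igfbp4* supplies 6 of these probe sets, the counts by gene at the brightest probe set were 8, 4 and 4 of 9. Over all probe sets tested *KRAP*-/- liver was higher at 46.8%, 48.1% and 43.3% in pairs 1, 2 and 3. The summed signal of 5 hepatocyte markers moved with this, since its highest value among the 6 livers, 3138, was that of *KRAP*-/- mouse 1, against 2883 to 2943 in wild-type liver, and its part in the member values was not tested. Without pair 1 the log2 fold changes of *Ahsg*, *Rbp4* and *Lect2* were -0.06, -0.05 and -0.05, against 0.03, 0.02 and 0.06 with all pairs. *Igfbp2*, *Fetub* and *Angptl6* held their direction in every pair.

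Differences across the set were mostly small. The median absolute log2 fold change of the 14 probe sets was 0.07, against 0.21 over all probe sets tested, beside a median standard error of 0.10 against 0.20. Their median signed change was 0.02, against -0.04. By a rule after the study's methods, a 1.5-fold difference in the same direction in each of the 3 pairs, 0 of 14 qualified. As applied here to signals over the array median, it took 2.5% of the probe sets tested. With dim probe sets included, it took 5.18% of all 45037 on the array. These shares are not those of the study's own selection. *Igfbp2* missed the rule in pairs 2 and 3, with ratios of 1.49 and 1.25.

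The genes whose 3 pair ratios lay closest to those of *Igfbp2*, by root mean square difference of log2 ratios over the 3 pairs, were *Srek1* (0.012), *Lgr6* (0.031) and *Ltn1* (0.034). None of these passed the test, with adjusted p-values of 0.25, 0.44 and 0.30 from limma, and with 3 pairs a close match is a description only. For *Srek1* the signal was 2.81, 2.78 and 2.38 in *KRAP*-/- liver, against 1.51, 1.89 and 1.91 in wild-type liver.

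Other hepatokines were listed for comparison with the 9 genes, and of 10, 7 were tested (2 at an unadjusted p under 0.05). *Manf*, a secreted protein that ER stress induces, fell, and the other 6 did not pass. It had 44.4, 41.2 and 42.5 in *KRAP*-/- liver, against 60.9, 56.7 and 62.5 in wild-type liver. The fit gave -0.49 on the log2 scale (SE 0.08, adjusted p = 0.026 from limma), and on the values as deposited the adjusted p was 0.087. All *KRAP*-/- livers lay below all wild-type livers. Over the 8 lists of related genes, 73 genes were listed, 67 were on the array, 59 were tested, and 1 was called higher and 2 lower, which leaves 56 that did not pass.

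**Figure D3:**
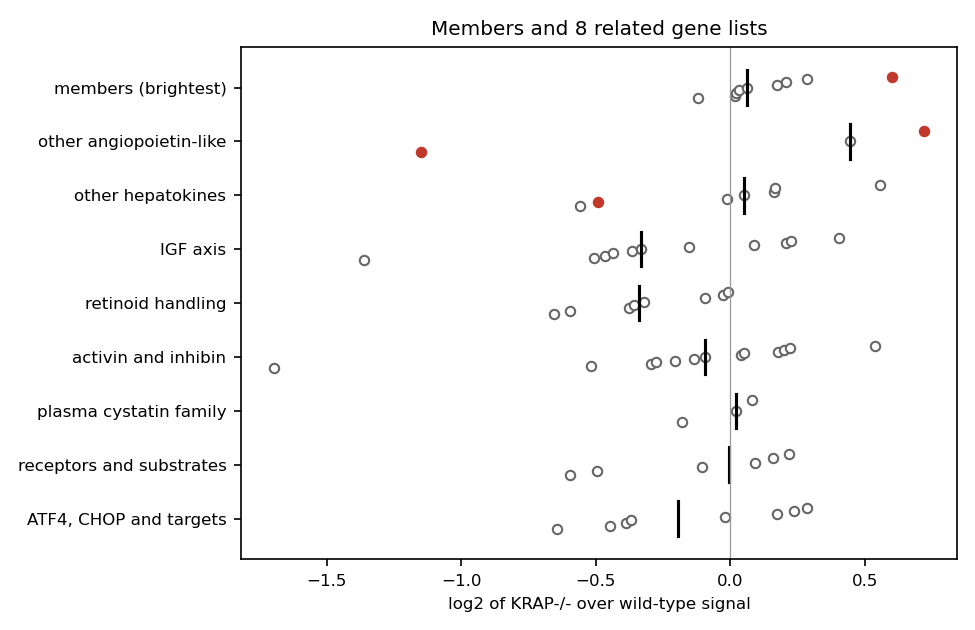
Log2 of *KRAP*-/- over wild-type signal for the 9 member genes and 8 lists of related genes, 1 point per gene at its brightest probe set. Black bars are medians and red points have an adjusted p under 0.05, which are *Igfbp2*, *Angptl4*, *Angptl8* and *Manf*.

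**Figure D4:**
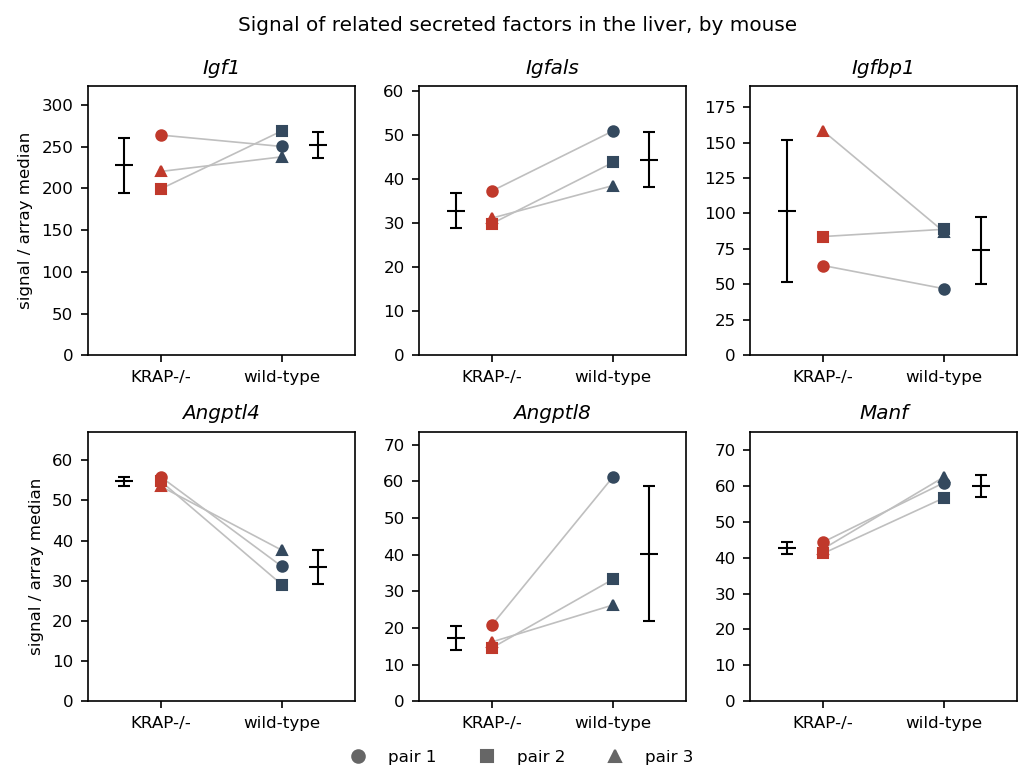
Signal of 6 related secreted factors in each liver, in units of the array median on a linear axis from 0, with *KRAP*-/- mice on the left and wild-type mice on the right. Lines join littermates and bars show mean and SD (n = 3 per genotype). Each gene is shown at its brightest probe set. There the groups are apart for *Igfals*, *Angptl4*, *Angptl8* and *Manf*, and overlap for *Igf1* and *Igfbp1*.

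The arrays and tissue bear on all of these values. Array medians as deposited were 20.2 to 23.4 in *KRAP*-/- and 19.1 to 22.6 in wild-type liver, and the 3′ to 5′ ratio of beta-actin was 2.28 to 2.32 and 2.01 to 2.65 in *KRAP*-/- and wild-type liver. Hepatocyte markers were bright in all 6 livers and none of 5 tested was called. Adipocyte markers were dim, with sums of 0.59 to 1.89 in *KRAP*-/- and 1.11 to 3.91 in wild-type liver. Only 2 of them were tested, and neither was called. These were *Adipoq* at -2.51 (adjusted p = 0.25 from limma) and *Retn* at -1.17 (adjusted p = 0.67). Of the Kupffer cell markers 6 of 6 had a log2 fold change below 0, with 1 of them called (*Clec4f*, -0.54, adjusted p = 0.026, and 0.071 on the values as deposited) and sums of 115 to 120 in *KRAP*-/- and 139 to 163 in wild-type liver. No marker was at exactly 0, and the part of these cells in the member values was not tested. The probe set of *KRAP* read 21.6, 21.3 and 20.0 in *KRAP*-/- liver, against 23.9, 24.5 and 22.3 in wild-type liver (log2 difference -0.17, adjusted p = 0.44). The sources used here do not place it relative to the deleted exons, so it checks no label.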

How the data were processed

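Liver RNA of 3 *KRAP*-/- and 3 wild-type littermates was hybridized to 6 Affymetrix whole-genome mouse arrays. Per the labels and the values, the deposited files hold linear intensity (signal) from GCOS, not yet scaled to the 50th percentile as the authors did later. Its background correction is not given in the sources used here. Each signal was divided by its array's median and 64 control probe sets were left out. After a floor of 0.1 and log2 transformation, limma 3.58.1 in R 4.3.3 was run on the 28531 probe sets whose mean reached 0.5, with littermate pair as block, an intensity trend and Benjamini-Hochberg adjustment over all of them, at a threshold of 0.05. Intervals are 95% intervals of single estimates, not adjusted for the number tested.

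The authors' 1.5-fold rule was applied without a floor. Of the probe sets, 34945 named 1 gene, 932 named several and 9160 named none. Genes outside the set were read at their brightest probe set. Pairs rest on the labels, and the correlations of littermates' deviations from the genotype means were 0.043, 0.0095 and -0.012. With 3 mice per genotype the number of arrays limits the precision. Python 3.11.15, pandas 2.3.3, numpy 2.4.6 and matplotlib 3.10.9 made tables and figures.

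The 9 genes, the lists and the naming rule were chosen with earlier results of these data known. The rule names all members, the 3 nearest genes on each side of the adjacent pairs, the 3 genes closest in pair ratios to a member that passed, and in each list up to 4 genes past the threshold or otherwise the 2 with the largest change. Alternatives tried were unscaled values, quantile normalization, a floor of 0.01, a pseudocount of 0.25, no limit or a limit of 1 on dim probe sets, no replicate block, no intensity trend, a higher fold limit and leaving out each pair.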

Additional observations from a re-analysis of the deposited data

How the results depend on the processing

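*Igfbp2* kept its direction under all 11 alternatives (0.45 to 0.74 on the log2 scale) and was called under 9 of them. With no limit on dim probe sets and with no intensity trend, 0 probe sets were called higher and 0 lower by limma over the array, with 4551 and 3089 at an unadjusted p under 0.05, so 0 members were called. With no replicate block, that is without the pairing, 93 were called higher and 255 lower, and *Igfbp2* had an adjusted p of 0.041. The block moved no other member across the threshold. Leaving out 1 pair gave 123 to 295 called higher and 288 to 469 lower, the most without pair 3, and *Igfbp2* was 0.45 to 0.74. No member met the 1.5-fold rule on other scales or without 1 pair.

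Changes of sign were seen only in genes that were not called, and the cause was not tested. Over the fits that each left out 1 pair, the log2 fold change was -0.055 to 0.079 for *Ahsg*, -0.045 to 0.054 for *Rbp4*, -0.051 to 0.19 for *Lect2*, -1.05 to 0.41 for *Stc2*, -0.015 to 0.065 for *Kng1*, -0.0068 to 0.039 for *R3hdm2*, -0.32 to 0.25 for *Tbccd1* and -0.022 to 0.18 for *Mars1*. For *Igfbp4* it was -0.0064 to 0.064 at the brightest probe set and -0.14 to 0.034, -0.23 to 0.045, -0.28 to 0.058 and -0.39 to 0.15 at the 4 dimmest, with 0.0055 without pair 3 at the last of these. On the values as deposited 2 of its probe sets were at 0.011 and 0.0050. The 1.22-fold difference of *Fetub* was not called under any alternative.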
